A study of Mus musculus with 18 samples.

Results

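Peaks of H3K27ac and H3K4me3 were examined over 8 genes that carry signals from immune-type receptors in platelets and leukocytes. They were the kinases Syk, Btk, Lyn and Fgr, the effectors Plcg2 and Vav1, the adaptor Lcp2 and the lipid phosphatase Inpp5d. The 8 genes were chosen by name as members of 1 pathway, out of 21938 protein-coding genes of GENCODE vM21 (mm10). Earlier results of these data were known when these genes and the gene lists below were chosen. Shares over all genes stand beside their counts as a description, not a test. For each gene the locus was the gene body plus 10 kb on each side, and the value was the percent of the locus under peaks in each library.

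Libraries labelled ERY came from erythroblasts of adult C57BL6 bone marrow, sorted as Ter119+, CD44+ cells with low forward scatter. Libraries labelled iMK came, by their label, from immature megakaryocytes of the same strain, stage and tissue, sorted as CD41+ and CD61+ cells without Ter119, Sca1 or cKit. Both sorts also excluded cells with CD4, CD8, IL7Ra, CD11b, Ly6g or CD45R, no mutation or treatment was given for either, and the study's methods state that the mice were male. Each mark had 2 libraries per cell type, 8 in all, and the replicate numbers used below only name them. The study's methods call replicates biological, from other mice or from other sorter aliquots of the same mice, so the spread between libraries may in part be technical.

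In the textbook scheme, a clustered receptor with an ITAM, a paired tyrosine motif, is phosphorylated by SRC family kinases such as Lyn and Fgr and then binds and activates Syk. Syk and the TEC family kinase Btk act through the scaffold SLP-76, the product of Lcp2, on phospholipase C gamma 2 (Plcg2), which releases calcium, and on Vav1, an exchange factor for Rac. SHIP1, the product of Inpp5d, removes the PI3-kinase lipid PIP3 and restrains the cascade. Platelets and megakaryocytes use these proteins below the collagen receptor GPVI and CLEC-2, and neutrophils, macrophages and mast cells use the same set below Fc receptors. H3K4me3 marks promoters in use, and H3K27ac marks active promoters and enhancers.

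The labels were checked against marker genes with the H3K27ac lists. In the libraries labelled ERY, 12 of 12 erythroid markers were covered, with a list mean of 51.9% and 47.1% of the locus, against 4 of 12 and means of 2.20% and 2.53% in the libraries labelled iMK. The megakaryocyte list did not follow its label. It had means of 4.70% and 7.14% in iMK, with 9 and 10 of 15 genes covered, and 16.6% and 14.2% in ERY, with 8 and 7 covered. Pf4 and Gp6, for the platelet chemokine and the collagen receptor, had no peak of either mark in any library, and Gp5 and Treml1 had no H3K27ac peak in iMK. Itga2b, the gene of the sort marker CD41, was at 0% in both iMK H3K27ac libraries, while Itgb3, the gene of CD61, had 5.82% and 8.73%. Selp, Itgb3 and Nbeal2 were higher in iMK and Gp1ba, Gp9 and Vwf higher in ERY (limma adjusted p from 0.0065 to 0.0436). The highest ERY values of the megakaryocyte list were those of Gp1ba (67.4% and 70.0%) and Gp9 (57.9% and 64.4%). All marker values include the 10 kb flanks, which make up most of a short gene's locus. Part of such a value, and of a list mean, can therefore belong to neighbouring genes, and adjacent markers can share peaks.

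Markers of neutrophils, and most markers of monocytes and macrophages, were covered in the iMK libraries. The neutrophil list had means of 17.9% and 34.8% in iMK, with 14 and 15 of 15 genes covered, and 1.14% and 0.650% in ERY. Lyz2 had 47.2% and 57.6% in iMK, S100a8 had 33.4% and 78.2%, and Itgam, which encodes the excluded surface protein CD11b, had 10.3% and 17.1%. Of the 15 neutrophil genes, limma called 6 higher in iMK and 0 in ERY, and 9 did not pass. S100a8 was among those 9 (limma adjusted p = 0.0951). The monocyte and macrophage list had means of 15.7% and 18.0% in iMK, with 11 of 14 genes covered in each, and 4.67% and 5.56% in ERY, and Spi1, which encodes PU.1, had 32.6% and 30.0% in iMK against 0% in ERY. Of the 11 monocyte and macrophage genes tested, 7 were called higher in iMK and 0 in ERY, and 4 did not pass. Over all genes tested, 17.2% were called higher in iMK and 22% in ERY. C1qa, C1qb and Vcam1, all macrophage markers, were at 0% in all 8 libraries. The B cell list had 3.92% and 5.46% in iMK against 4.03% and 3.25% in ERY. Pax5 and Ms4a1 were at 0% in every library, and 2 of 7 genes tested, Igll1 and Blk, were called higher in iMK and 0 in ERY. The T and NK cell list had 1.74% and 1.48% in iMK against 1.68% and 1.13% in ERY. Cd3e, Cd8a, Zap70, Tcf7 and Ncr1 were at 0% in every library. Cd3d, at 9.39% and 8.61% in iMK and 0% in ERY, was the only 1 of 3 tested that was called. Lck had 15.5% and 10.6% in ERY against 6.62% and 3.53% in iMK and did not pass. All 7 mast cell and basophil markers had no peak of either mark. Neutrophils and macrophages use the 8 signalling genes too. The means of both their marker lists were higher in iMK than in ERY. Each comparison of ERY with iMK below is therefore also one between libraries that differ in these lists. Not every marker went that way, since Ccr2 had 6.96% and 34.8% in ERY against 19.6% and 21.5% in iMK. The part of such cells in the results was not tested. A share of cells that carry a mark and its strength per cell cannot be told apart in such lists.

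**Figure D1:**
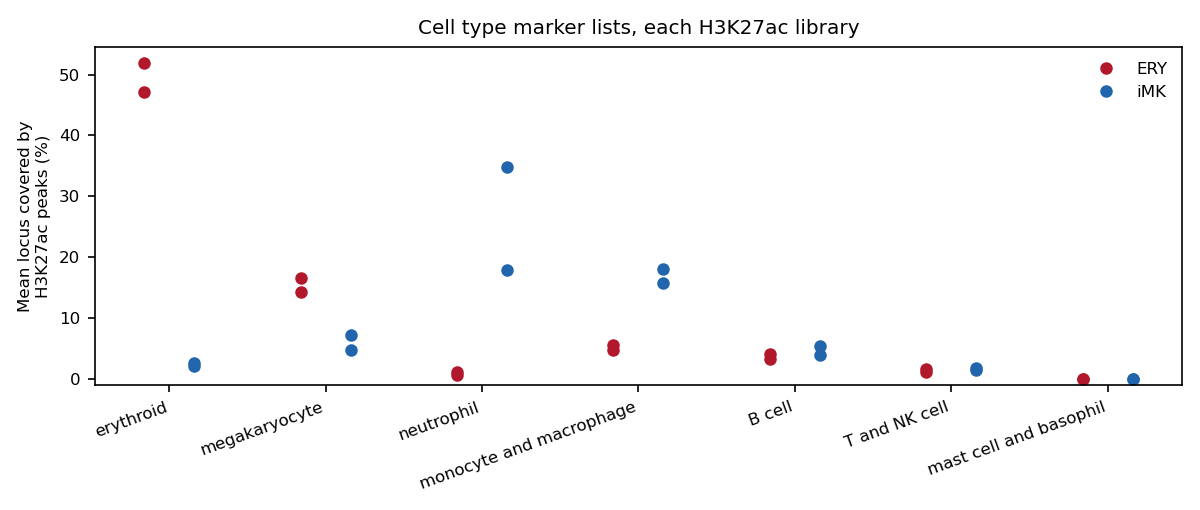
The vertical axis is the mean percent of the locus (gene body plus 10 kb on each side) under H3K27ac peaks over each list of cell type markers, and each point is 1 library (ERY red, iMK blue). The neutrophil list sits at 17.9% and 34.8% in iMK and at 1.14% and 0.650% in ERY, while the megakaryocyte list is higher in ERY, at 16.6% and 14.2%, than in iMK, at 4.70% and 7.14%.

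Promoter windows of RefSeq (GRCm38.p6, 250 bases before to 50 after an annotated start) matched 7 of the 8 genes, in 8 windows, since Syk has 2 starts. Lyn was not among them. The core GAGGAA, recognised by PU.1 and related ETS factors, lay in 6 of the 8 windows on either strand, those of Inpp5d, Fgr, Lcp2, Vav1, Btk and the second Syk start, and in 28.3% of all 32851 windows of the table. All of these matches lay within 50 bases of the start, where 11.3% of all windows had one, a distance chosen after the positions were seen. The matches are shown because they are what these promoters share, each with 10 bases on either side on the strand of the gene and with GAGGAA or its reverse complement TTCCTC in capitals. Positions are those of the first capital, counted from 1 at the RefSeq start and from -1 for the base before it.
Inpp5d, position -20, chr1:87620282-87620307, plus strand: tttctataatGAGGAAgttctgtgca
Inpp5d, position 4, chr1:87620305-87620330, plus strand: gcagctcagtTTCCTCtccctcgctg
Fgr, position 32, chr4:132974116-132974141, plus strand: ccgagacggcTTCCTCctccctcccc
Lcp2, position 5, chr11:34046922-34046947, plus strand: gccccctttgTTCCTCttcctgcttg
Vav1, position -11, chr17:57279079-57279104, plus strand: agtcacagaaGAGGAAgtggtgttgt
Btk, position 10, chrX:134583116-134583141, minus strand: cagactgtccTTCCTCtctggactgt
Syk second start, position -9, chr13:52596863-52596888, plus strand: ctgacactttGAGGAAaagccacttc

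The first Syk start and the Plcg2 start had no GAGGAA in their windows and were the 2 most CpG-rich, with 27 and 17 CpG in the 250 bases before the start, against a median of 6 over all windows. Lcp2 had 0. The bases before the start of Plcg2 and Lcp2 are printed as a CpG-rich and a CpG-free example, up to the first annotated exon base (242 of 250 bases for Lcp2), with the GATA core AGATAA or its reverse complement TTATCT in capitals.
Plcg2, chr8:117498025-117498274, plus strand: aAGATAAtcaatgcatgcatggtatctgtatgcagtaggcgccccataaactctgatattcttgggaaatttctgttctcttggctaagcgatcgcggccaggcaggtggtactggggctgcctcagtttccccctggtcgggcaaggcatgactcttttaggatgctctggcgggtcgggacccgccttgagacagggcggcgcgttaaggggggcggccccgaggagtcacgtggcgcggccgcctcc
Lcp2, chr11:34046678-34046919, plus strand: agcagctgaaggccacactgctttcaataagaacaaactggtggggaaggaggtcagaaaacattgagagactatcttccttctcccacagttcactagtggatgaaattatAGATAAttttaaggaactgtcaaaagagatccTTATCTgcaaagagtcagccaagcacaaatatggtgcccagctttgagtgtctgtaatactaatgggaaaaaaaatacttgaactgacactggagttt
AGATAA occurred in 2 of the 8 windows and in 11.2% of all windows, and the RUNX core TGTGGT in 0 of the 8 and in 16.8% of all. A match is a description of the letters and not a binding site.

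H3K27ac covered more of the locus in iMK than in ERY for 6 of the 8 genes, Syk, Lyn, Fgr, Plcg2, Vav1 and Lcp2, with differences (ERY minus iMK) of -12.4 to -34.0 percentage points. Inpp5d, the inhibitor, went the other way and was higher in ERY by 44.8 points. Btk did not pass the test. The counts were 6 of 8 higher in iMK, where the limma test over all 14467 genes with a peak in at least 1 of the 4 libraries called 17.2% in that direction, and 1 of 8 higher in ERY, where it called 22%. The median difference was -16.8 points over the 8 genes and 0.60 points over all genes tested. For Lyn, Plcg2, Vav1 and Lcp2 both ERY libraries were at 0%, the lowest possible value, so their ERY spread was 0. The SEs and p-values of these genes rest on the spread of the iMK libraries and on that shared across genes by limma.

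Syk encodes the cytoplasmic tyrosine kinase that docks on phosphorylated ITAMs, and its locus (gene ENSMUSG00000021457.14, chr13:52583173-52648792, plus strand) was covered by H3K27ac for 1.64% and 0% in ERY replicates 1 and 2 and for 29.7% and 40.0% in iMK. The groups were far apart, and the iMK libraries differed from each other by more than for Vav1 or Plcg2. The difference was -34.0 ± 4.33 points (SE from limma, n = 2 per group; limma adjusted p = 0.0167). Each iMK library had 12 peaks in the locus. They ran from -13.2 kb, past the edge of the locus, to 54.4 kb relative to the first annotated start. Both starts of Syk, the second 13.7 kb after the first, had an H3K27ac peak in both iMK libraries. The peak at the first start had a deposited fold over control of 16.6 in iMK replicate 1 and 14.8 in replicate 2, higher than 91.1% and 92.0% of the peaks in those lists. The only ERY peak, in replicate 1, was 1.4 kb wide at the first start with a fold of 2.12, higher than 16.3% of its list.

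Btk encodes the TEC family kinase mutated in X-linked agammaglobulinaemia, and its locus (ENSMUSG00000031264.13, chrX:134542336-134583570, minus strand) was covered for 9.15% and 5.88% in ERY and 10.5% and 10.1% in iMK. The iMK values lay just above the ERY values, and the difference of -2.78 ± 1.55 points did not pass (limma adjusted p = 0.245). It ranged from -4.41 points without ERY replicate 1 to -1.14 without ERY replicate 2, was -1.46 over the gene body alone and -5.29 after quantile normalization, and passed in none of these fits (limma adjusted p from 0.0580 to 0.330). The covered bases were few and shared with neighbours. Peaks sat at the Btk start, at the start of the ribosomal protein gene Rpl36a 2.08 kb upstream and at the start of Timm8a1, a mitochondrial import gene, just past the 3′ end of Btk, 41.7 kb from its start. Without peaks that touched only a neighbour's start, 3.27% and 3.92% of the locus remained in ERY and 3.92% and 5.88% in iMK. The peak at the Btk start itself had folds of 6.50 and 4.23 in ERY, higher than 90.9% and 79.8% of those lists, and of 24.2 and 13.5 in iMK, higher than 97.1% and 89.7%. No H3K27ac peak lay in the Btk body between 3.17 kb and 40.8 kb from the start in any library.

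Lyn encodes a SRC family kinase of myeloid and B cells that both starts and restrains ITAM signals, and its locus (ENSMUSG00000042228.14, chr4:3678115-3813122, plus strand) had no H3K27ac peak in either ERY library and 15.9% and 18.6% covered in iMK. The difference was -17.2 ± 1.35 points (limma adjusted p = 0.0082). In both iMK libraries the peak at the start was unusually wide, 8.8 kb and 8.6 kb, wider than 99.7% and 99.3% of the peaks in those lists. A further start 78.3 kb into the gene had an H3K27ac peak in iMK replicate 2 only.

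Fgr encodes a SRC family kinase of neutrophils and monocytes, and its locus (ENSMUSG00000028874.14, chr4:132974095-133001910, plus strand) was covered for 1.90% and 1.67% in ERY and 17.6% and 27.8% in iMK. The difference was -20.9 ± 4.19 points (limma adjusted p = 0.0385), the highest adjusted p of the 7 that passed, and -33.5 points over the gene body alone. The ERY peaks lay downstream of the gene and not on it. In ERY replicate 1 the peak began 36.9 kb after the Fgr start, at the start of the neighbouring gene Ahdc1, and in replicate 2 it lay at 33.7 kb to 34.5 kb. Without peaks at the Ahdc1 start the values were 0% and 1.67% in ERY and 16.5% and 26.8% in iMK. The peak at the Fgr start had a fold of 23.8 in iMK replicate 1 with a width of 1.4 kb, and 6.39 in replicate 2 with a width of 4.2 kb.

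Plcg2 encodes the phospholipase C isoform of platelets and myeloid cells, and its locus (ENSMUSG00000034330.10, chr8:117498291-117635142, plus strand) had no peak in ERY and 13.6% and 11.2% covered in iMK. The difference was -12.4 ± 1.14 points (limma adjusted p = 0.0099), the smallest of the 6 that were higher in iMK. The peak at its single annotated start was short and strong, with folds of 27.3 and 13.2 over 1.6 kb and 1.8 kb, higher than 98.2% and 89.2% of the peaks in the 2 lists. The other peaks lay inside the first 68.7 kb of the gene at folds of 2.65 to 4.82, and both flanks were empty.

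Vav1 encodes the Rac exchange factor of blood cells, and its locus (ENSMUSG00000034116.17, chr17:57279100-57328031, plus strand) had no peak in ERY and 16.3% and 16.6% covered in iMK. The iMK values were the closest pair among the genes higher in iMK, and the difference was -16.4 ± 0.80 points (limma adjusted p = 0.0065). Peaks lay around the first start, in the first 13.3 kb of the gene, upstream at -4.50 kb to -3.30 kb and past the 3′ end. The starts at 24.0 kb and 32.8 kb had no peak of either mark in any library. In iMK replicate 1 the strongest peak of the locus was 1 kb wide and 4.50 kb after the start, with a fold higher than 94.8% of its list, and the peak at the start itself had a fold of 5.63, higher than 48.4%. In replicate 2 the order was reversed, with a fold of 7.85 at the start, higher than 69.1% of its list, and of 4.36 for the peak that began at 4.90 kb, higher than 32.5%.

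Lcp2 encodes SLP-76, the scaffold that brings Plcg2 and Vav1 together, and its locus (ENSMUSG00000002699.13, chr11:34046920-34092295, plus strand) had no peak in ERY and 20.5% and 24.5% covered in iMK. The difference was -22.5 ± 1.85 points (limma adjusted p = 0.0087). All H3K27ac peaks lay between -0.519 kb and 25.5 kb from the start, and the starts at 31.3 kb and 40.1 kb had none. The whole gene lies within 4930469K13Rik on the opposite strand, whose own start had no peak in any library, and a peak in the locus cannot be assigned to one of them by position. The H3K27ac peaks of the 7 genes other than Inpp5d are drawn in the map of their loci.

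**Figure D2:**
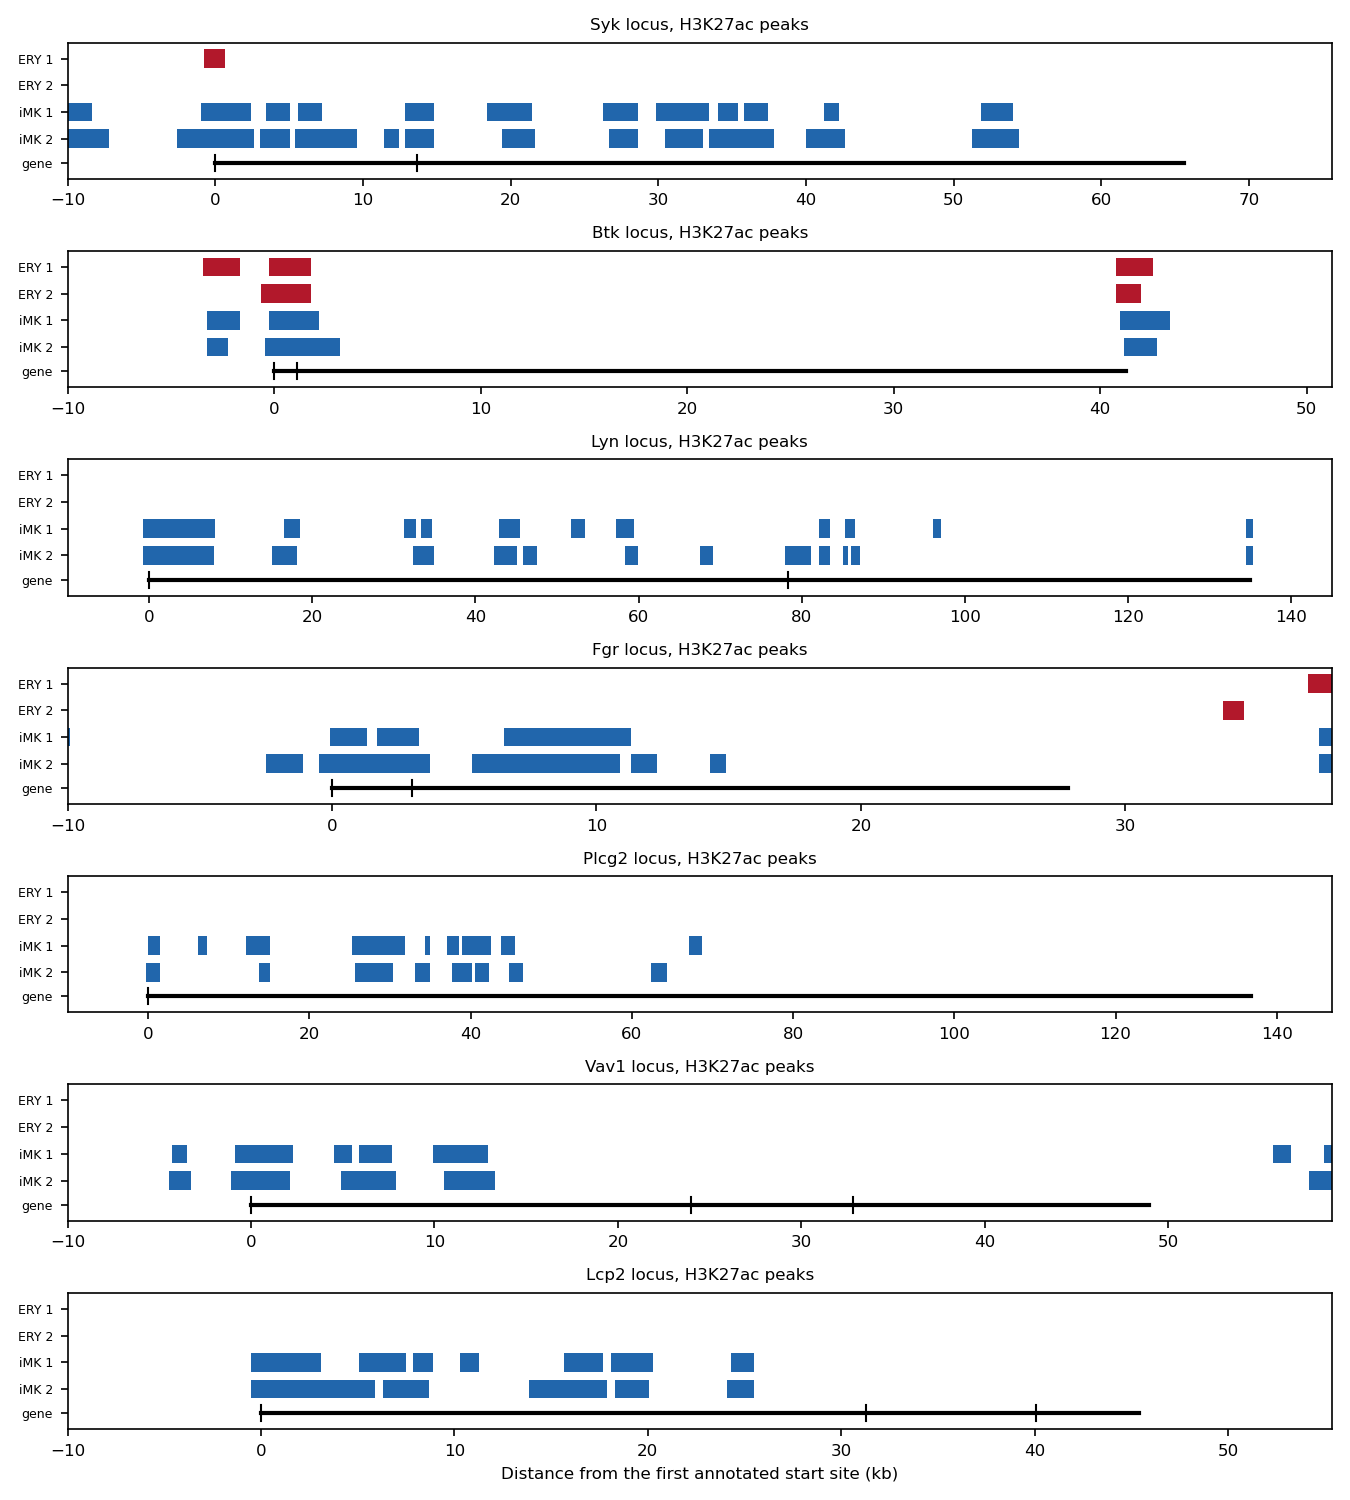
Each panel is 1 locus, with the distance from the first annotated start in kb on the horizontal axis, a row of H3K27ac peaks per library (ERY red, iMK blue) and the gene as a black line with ticks at annotated starts. Lyn, Plcg2, Vav1 and Lcp2 have no ERY peak, Syk has 1 in ERY replicate 1 at its start, and the Fgr peaks of ERY lie downstream of the gene. In Vav1, Lcp2 and Plcg2 the iMK peaks inside the gene end at 13.3 kb, 25.5 kb and 68.7 kb after the start.

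Inpp5d encodes SHIP1, and its locus (ENSMUSG00000026288.14, chr1:87620312-87720507, plus strand) was covered for 66.9% and 60.7% in ERY and for 17.6% and 20.5% in iMK. The ERY libraries lay well above both iMK libraries, and the difference was 44.8 ± 3.45 points (limma adjusted p = 0.0081). The whole ERY H3K27ac lists were wider and weaker, at 77.0 Mb and 64.9 Mb with median folds of 3.06 and 2.77. The iMK lists held 42.9 Mb and 53.2 Mb with median folds of 5.79 and 5.65. The difference was 16.3 points with peaks of fold 3 or more alone and 23.03 after quantile normalization (limma adjusted p = 0.0381 and 0.0055). In ERY the first peak inside the gene began 19.3 kb and 19.5 kb after the start, and acetylation ran from there past the 3′ end. The widest peak measured 27.6 kb and 27.8 kb, wider than 99.7% of the peaks in each list, began 76.1 kb after the start in both libraries and had folds of 7.91 and 5.77, higher than 95.5% and 92.3% of the peaks in those lists. The other ERY peaks inside the gene had folds of up to 5.61.

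In iMK the Inpp5d peaks began at the start, with a fold of 12.4 in both libraries, and ended at 55.3 kb in replicate 1 and 40.1 kb in replicate 2. No ERY peak touched the 7 starts within 1 kb of the first or the start at 1.36 kb, and no iMK peak touched the start at 89.0 kb, which was covered in both ERY libraries. The internal start at 55.9 kb had an H3K27ac peak within 1 kb in both ERY libraries and in iMK replicate 1. Of the locus, 67.4 kb was covered in both ERY libraries, 15.4 kb in both iMK libraries and 7.0 kb in all 4. The bases covered in both ERY libraries and in neither iMK library came to 56.6 kb, and the reverse to 7.2 kb.

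**Figure D3:**
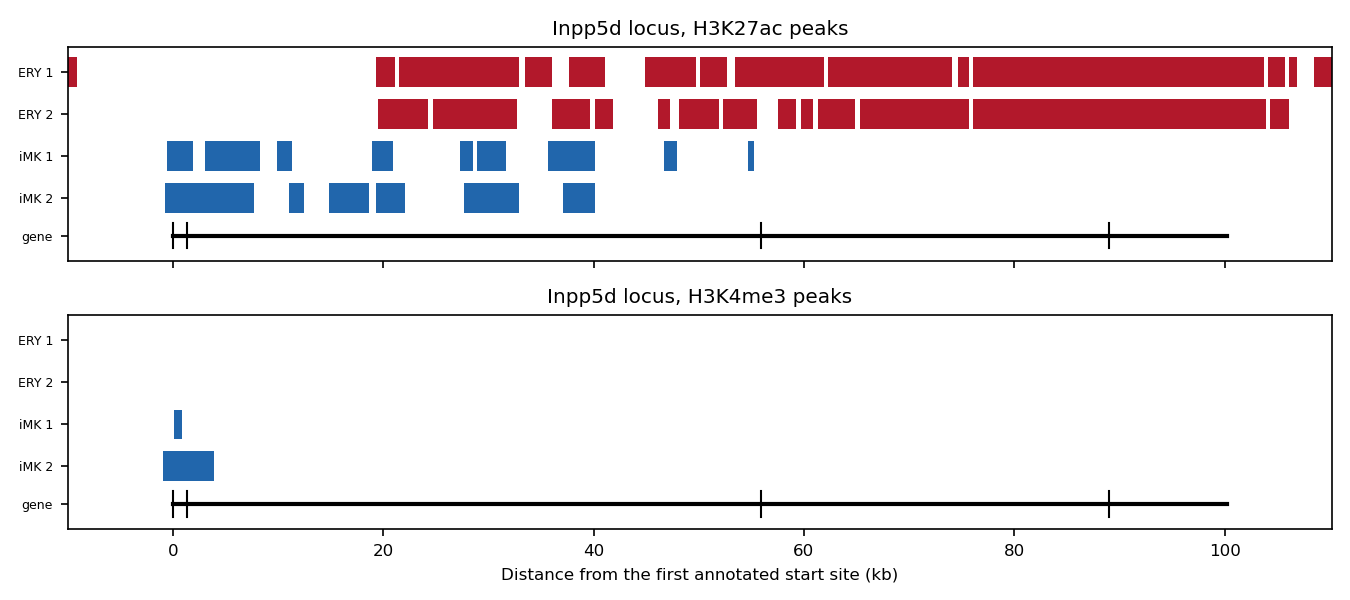
The horizontal axis is the distance from the first annotated Inpp5d start in kb, each row is 1 library (ERY red, iMK blue), the upper panel shows H3K27ac peaks and the lower one H3K4me3 peaks, and the black line is the gene with ticks at annotated starts. ERY H3K27ac begins at 19.3 kb and 19.5 kb after the start inside the gene, iMK H3K27ac lies at the start and up to 55.3 kb, and H3K4me3 is present only at the start in iMK.

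A window of 240 bases from the ERY domain of Inpp5d, 91.9 kb after the start, is printed because it held the most AGATAA matches of that domain outside exons, 2, shown in capitals on the plus strand. A window of the same length from the iMK bases of Syk, 20.1 kb after the start, held the most GAGGAA matches of that locus outside exons, 3.
Inpp5d, ERY only, chr1:87712241-87712480, plus strand: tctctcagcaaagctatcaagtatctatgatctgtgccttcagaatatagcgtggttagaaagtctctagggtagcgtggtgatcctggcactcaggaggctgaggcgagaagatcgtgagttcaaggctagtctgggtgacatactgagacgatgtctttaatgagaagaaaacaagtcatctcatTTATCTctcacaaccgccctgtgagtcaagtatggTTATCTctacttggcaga
Syk, iMK only, chr13:52603321-52603560, plus strand: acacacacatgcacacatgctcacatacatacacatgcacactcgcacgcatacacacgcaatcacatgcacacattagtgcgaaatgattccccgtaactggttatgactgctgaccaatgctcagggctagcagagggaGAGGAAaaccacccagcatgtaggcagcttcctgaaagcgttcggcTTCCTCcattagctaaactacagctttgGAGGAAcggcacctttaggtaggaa
Such windows were not typical, since 25 of 228 consecutive windows of that length in the ERY bases of Inpp5d held AGATAA, and 18 of 83 in the iMK bases of Syk held GAGGAA. The rate of AGATAA was 0.495 per kb in the ERY bases of Inpp5d, 0.692 per kb in all bases covered in both ERY libraries and in neither iMK library, and 0.749 per kb over the chromosomes. That of GAGGAA was 1.29 per kb in the iMK bases of the other 7 genes, from 0.664 in Vav1 to 2.02 in Lcp2 among those with over 1 kb, against 1.35 in all bases covered in iMK only and 1.07 over the chromosomes.

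Of the 103 kb of the 8 loci covered by H3K27ac in both iMK libraries, 17.4% lay within 1 kb of a start, where 4.89% of all locus bases lay, and 74.9% in introns more than 1 kb from a start, where 70.5% of all locus bases lay, a share near that of the loci themselves. The rest was 1.72% in exons elsewhere, 3.33% in the upstream flanks and 2.67% in the downstream flanks. The 2 iMK libraries shared from 48.9% of their covered bases in Plcg2 to 66.3% in Vav1, and the 2 ERY libraries shared 78.4% in Inpp5d, 53.3% in Btk and 0% in Syk and Fgr, the loci with any ERY peak.

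H3K27ac peaks of the 4 libraries were joined into 67 regions over the 8 loci. Of these, 38 (56.7%) were called in both iMK libraries and in neither ERY library, where 21.7% of all 42199 regions were. Only 2 (2.99%), both in Inpp5d, were called in both ERY libraries alone, where 16.5% of all regions were, and 4, in Btk and Inpp5d, in all 4 libraries. Syk had 10 iMK regions, Lyn 8, Plcg2 6, Vav1 5, Lcp2 4, Fgr 3, Inpp5d 2 and Btk 0. The peaks in the loci were not stronger than most. Their median fold was 4.53 and 4.40 in the 2 iMK libraries, against 5.79 and 5.65 over those whole lists.

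Values of ERY and iMK did not overlap for any of the 8 genes. The iMK libraries were above in 7, where 31.3% of all genes tested had that order, and the ERY libraries in 1, where 41.1% had it. Leaving out either ERY library left only Vav1 past the threshold among the 6 genes higher in iMK, and leaving out either iMK library took Inpp5d over it (limma adjusted p = 0.0681 without replicate 1 and 0.0656 without replicate 2), while every difference kept its sign. Fgr lost its call without the trend in limma (adjusted p = 0.0552) and with no filter on genes (0.0741), and Lcp2 lost it when peaks under a fold of 3 were dropped (limma adjusted p = 0.0625).

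**Figure D4:**
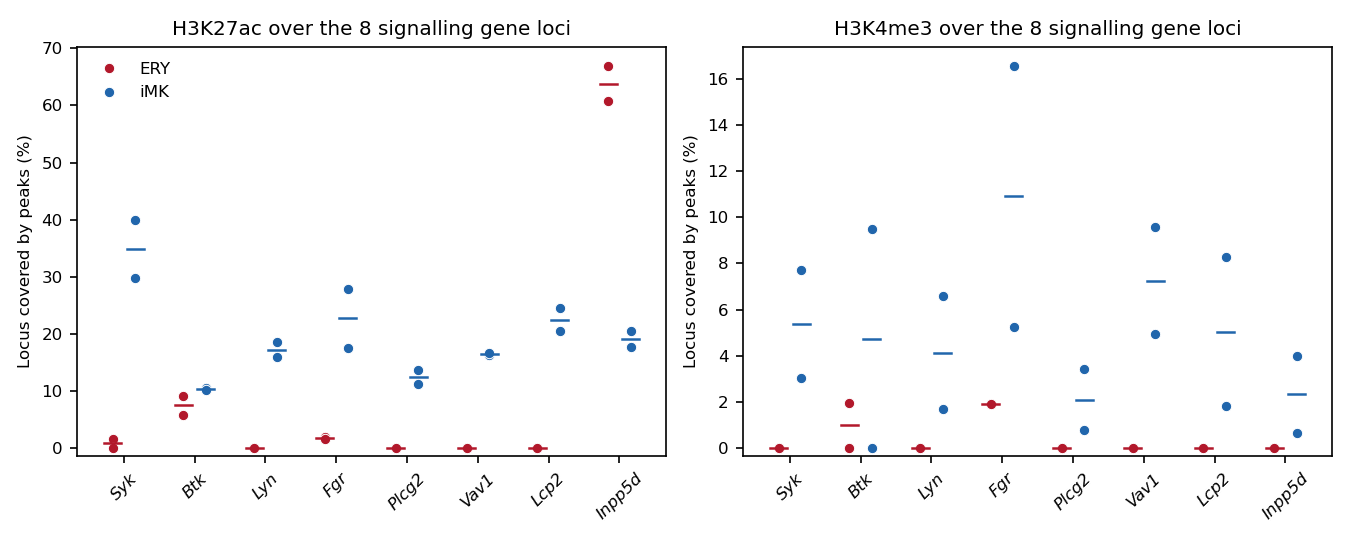
The vertical axis is the percent of each locus under peaks, points are the 2 libraries of each cell type (ERY red, iMK blue) and bars are their means, with H3K27ac on the left and H3K4me3 on the right on separate scales. For H3K27ac the iMK points lie above the ERY points in 7 genes and below them in Inpp5d, and for H3K4me3 the 2 iMK libraries differ widely.

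H3K4me3 was found in iMK and nearly absent from ERY over these loci. The 2 iMK libraries differed widely, and the test called no gene. The list of iMK replicate 2 held 13222 peaks over 33.8 Mb and that of replicate 1 held 7578 over 11.3 Mb, against 8841 and 6275 in ERY. limma called 0 of the 8 genes and 0% of all 13561 genes tested in either direction, with 482 of all genes at an unadjusted p under 0.05, 418 of them higher in iMK, and 1 of the 8, Vav1. The median difference was -4.59 points over the 8 genes and -1.66 over all genes tested.

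The loci with no H3K4me3 peak in either ERY library were those of Syk, Lyn, Plcg2, Vav1, Lcp2 and Inpp5d. Syk had 3.04% and 7.71% covered in iMK, and Vav1 had 4.93% and 9.57%. Lyn had 1.68% and 6.58%, and Lcp2 had 1.84% and 8.26%. In each of these, iMK replicate 2 was above replicate 1, and the gap was of the size of replicate 1 or more except in Vav1. Plcg2 had 0.765% and 3.44%, and Inpp5d had 0.666% and 3.99%, the lowest means. Fgr had 1.90% in both ERY libraries, all of it at the Ahdc1 start, and 5.25% and 16.5% in iMK. Btk had 1.96% and 0% in ERY and 0% and 9.47% in iMK, the only gene whose cell types overlapped. The limma differences for the 8 genes ran from -8.99 ± 4.84 points for Fgr to -2.10 ± 1.16 for Plcg2 (limma adjusted p = 0.772 for 7 genes and 0.815 for Btk). All 8 were negative, as were the differences of 83.5% of all genes tested.

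The iMK libraries were above both ERY libraries in 7 of 8 genes, where 20.4% of all genes tested had that order, and 2.71% had the reverse. Without iMK replicate 1, limma called 7 of the 8 genes higher in iMK, along with 4099 of 13474 genes tested, and without replicate 2 it called 5, along with 986 of 11422. The 5 were Syk, Lyn, Plcg2, Vav1 and Lcp2. In these fits the lone iMK library is assumed to vary like the ERY libraries, whose values over these 5 loci were all 0%.

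H3K4me3 lay mostly at the starts, but not in every gene. Of the 14.3 kb covered in both iMK libraries, 60.3% lay within 1 kb of an annotated start. The share was 65.5% or more in Syk, Lyn, Plcg2, Lcp2 and Inpp5d. In Vav1 it was 27.3%, with 64.7% in the upstream flank, and in Fgr 43.9%, with 28.3% in the downstream flank. In iMK replicate 2, H3K4me3 covered from 25.1% of the start windows of Lcp2, 33.6% of those of Vav1 and 44.5% of those of Inpp5d, which include internal starts without a peak, to 100% of those of Plcg2. In iMK replicate 1 it covered from 0% in Btk to 60.0% in Plcg2. The shared H3K4me3 bases fell wholly within shared H3K27ac bases in Syk, Lyn, Lcp2 and Inpp5d, and for 58.8% to 76.1% in Vav1, Plcg2 and Fgr. H3K27ac spread much farther, with 5.19% of its shared iMK bases under shared H3K4me3 in Inpp5d and 24.1% in Fgr, the range over the 7 genes that had both. Vav1 carried an H3K4me3 peak in both iMK libraries upstream, at -4.70 kb to -1.90 kb in replicate 2, apart from the one at its start.

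At promoters, taken as 1 kb on each side of any annotated start, 7 of the 8 genes had an H3K4me3 peak in both iMK libraries and in neither ERY library, where 4.89% of all 21938 genes did. The exception was Btk, with a peak in iMK replicate 2 alone. For H3K27ac 5 of the 8, Lyn, Fgr, Plcg2, Lcp2 and Vav1, had that pattern, where 8.56% of all genes did. Btk and Inpp5d had an H3K27ac promoter peak in all 4 libraries, Inpp5d through its internal starts in ERY, and Syk in 3 of 4. H3K4me3 regions followed, with 8 of 17 (47.1%) in the loci called in both iMK libraries and neither ERY library, where 7.78% of all 14789 regions were.

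The rest of the pathway was described with lists of related genes, 110 genes apart from the 8, also chosen with earlier results of these data known. H3K27ac was higher in iMK for 43 and higher in ERY for 11 of the 104 with a peak in any of the 4 libraries, 50 did not pass, where the shares over all genes tested were 17.2% and 22%. Each list below is to be read against these shares. The median difference was -4.60 points against 0.60 over all genes tested. H3K4me3 was called for 0 of 95 by limma, as for all genes. A short gene's locus is mostly flank, so part of such a value can belong to neighbouring genes.

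Among the other SRC family kinases, 3 of 5 tested were higher in iMK and 0 in ERY. Fyn and Blk, kinases best known from lymphocytes, differed by -3.14 and -0.62 points. Src had no H3K27ac peak. Of the SYK and TEC family paralogs, 1 of 4 was higher in iMK, the kinase gene Tec, with 0% in both ERY libraries and 19.6% and 24.6% in iMK, and Zap70, the T cell paralog of Syk, had no peak.

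Of the signal adaptors, 6 of 14 were higher in iMK and 3 in ERY. Pstpip1, a cytoskeletal adaptor, differed by -40.5 points, Lat2, a membrane scaffold of myeloid and mast cells, by -25.4, and the PI3-kinase adaptor Pik3ap1 by -17.0. Nck2, Grap2, which binds SLP-76, and Blnk, the B cell relative of SLP-76, were higher in ERY by 11.1, 10.3 and 6.89 points. Of the PLC gamma, VAV and PI3-kinase paralogs, 4 of 9 were higher in iMK, led by the PI3-kinase subunit genes Pik3r5 (-22.4 points) and Pik3cd (-16.8) and by Vav3 (-7.12), and 1, Pik3r1, was higher in ERY, by 8.82.

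Of the inhibitors beside Inpp5d, 5 of 20 were higher in iMK and 3 in ERY, near the shares over all genes tested (17.2% and 22%), and 12 did not pass. Dok1, a docking protein that recruits RasGAP, had 94.7% and 86.7% in ERY and 14.2% and 12.4% in iMK, and the receptor phosphatase gene Ptprj and the ubiquitin ligase gene Cblb were higher in ERY by 29.4 and 5.23 points. Dok2, Dok3 and Cbl, from the same families as Dok1 and Cblb, were higher in iMK, with differences of -22.2, -14.6 and -10.2 points.

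Of the ITAM receptors and adaptors 6 of 17 were higher in iMK and 2 in ERY, and the adaptor genes Tyrobp (DAP12) and Fcer1g (the Fc receptor gamma chain) and the receptor gene Pira2 differed by -56.7, -22.6 and -10.6 points. Clec4e and Cd247 were higher in ERY by 27.1 and 4.05 points. Of the ITIM receptors, which recruit SHIP1 or the phosphatase SHP-1, 9 of 13 were higher in iMK and 0 in ERY, led by Cd300a (-63.9 points), Sirpa (-35.0) and Siglece (-34.7), with a list median of -25.9 points. Downstream effectors had 9 of 22 higher in iMK, led by the kinase gene Prkcd (-57.8), the calcium channel gene Orai1 (-21.2) and Wipf1 (-16.7), and 2, Malt1 and Itpr2, higher in ERY by 8.37 and 5.65.

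**Figure D5:**
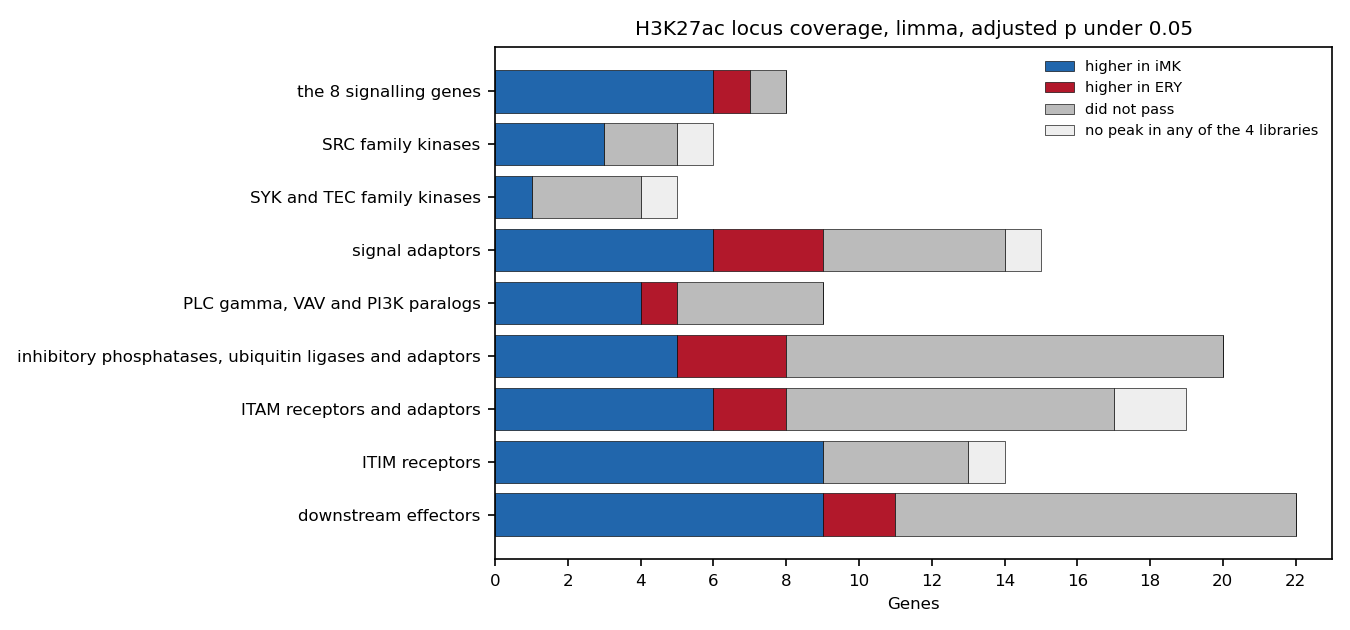
Each bar is a list of genes, and its segments count the genes whose H3K27ac locus coverage was higher in iMK, higher in ERY, or did not pass limma at an adjusted p under 0.05, or that had no peak. The 8 signalling genes have 6 higher in iMK and 1 in ERY, and the ITIM receptors 9 and 0.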

How the data were processed

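The deposited lists hold, per the labels and the study's methods, peaks of ChIP-seq libraries from sorted mouse bone marrow, with a fold over control (a ratio), a p-value and a q-value (all under 0.01) for each peak. As tools, Bowtie 1.0.0 and SICER 1.1 stand in the submitters' processing notes, with mm10 as the build and no roles given, whereas the study's methods name MACS, and all peak edges are multiples of 200 bp. Peak lists give no read depth, so no interval for counting error is given, and longer lists cover more bases. The 10 input libraries were not analysed here.

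The percent of each GENCODE vM21 locus under peaks was compared with limma 3.58.1 (R 4.3.3, trend, Benjamini-Hochberg) over all genes with a peak in at least 1 of 4 libraries, ERY minus iMK, and called at an adjusted p under 0.05. An exact test of 2 against 2 libraries cannot go below 0.333 (two-sided). Coverage was checked against bedtools 2.31.1, and limma tested on simulated data. Regions join peaks that share at least 1 bp. Named genes are the 8, their neighbours with peaks, markers at 0% or among the most covered of their list, and up to 3 genes per direction and list by size of difference. Itgb3, Itgam, Ccr2, Lck and the called megakaryocyte, B cell and T and NK cell markers were named after their values were seen. The 8 genes and all lists were chosen with earlier results of these data known. Clec7a was not found in the annotation used. Some genes stand in 2 lists (Cd79a, Cd22, Blk, Lck, Zap70, Cd3e, Gp6 and Treml1). Some genes of the lists are counted but not reported by name here.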

Additional observations from a re-analysis of the deposited data

Results flagged for a closer look

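Over the whole locus, the differences of Inpp5d had opposite signs in the 2 marks. For H3K27ac both ERY libraries lay above both iMK libraries, and the difference was 44.8 percentage points of the locus (ERY minus iMK). For H3K4me3 both iMK libraries lay above both ERY libraries, which were at 0%, and the difference of -2.33 points did not pass (limma adjusted p = 0.772). The marks did not differ in direction at the first start or at the start at 1.36 kb. There, both had peaks in both iMK libraries and in neither ERY library. The difference between the marks was not tested.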

How the results depend on the processing

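Under the alternatives to the H3K27ac fit, 96 differences of single genes kept their direction and their side of the threshold, 15 lost their call and 0 changed sign. The number of the 8 genes higher in iMK for H3K27ac ranged from 1 to 6 when a library was left out, and that higher in ERY from 0 to 1. For H3K4me3 the number higher in iMK ranged from 0 to 7, 91 single differences stayed, 12 gained a call, all of them without 1 of the iMK libraries, and 1 reversed, Btk, whose difference ranged from -8.49 to 0.98 points with 1 library left out and turned positive without iMK replicate 2 (limma adjusted p = 0.797). Leaving out a library leaves its group with 1, which is assumed to vary like the other group. With gaps of up to 600 bp joined, 0 regions of the loci were called in ERY alone for H3K27ac, since the 2 in Inpp5d merged with neighbours. Over all genes, H3K27ac calls of 3189 higher in ERY and 2490 in iMK became 1411 and 2394 with peaks of fold 3 or more, 3100 and 1408 with a mean coverage of 5% or more, 2490 to 3276 and 754 to 756 without 1 ERY library, and 917 to 927 and 2816 to 3248 without 1 iMK library. H3K4me3 calls of 0 became 1 and 2 with no filter on genes, 20 and 4099 without iMK replicate 1, and 0 and 986 without replicate 2. With a mean coverage of 5% or more only Fgr of the 8 was tested for H3K4me3. No paired analysis was possible because the labels give no replicate numbers.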

Other observations

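The genes whose coverage was most like that of each of the 8, by the Euclidean distance between the percents in the 8 libraries and leaving out overlapping loci, were Tspan14 for Syk (3.63 points), Mlh3 for Btk (2.43), Atp8b4 for Lyn (1.89), Dstn for Fgr (4.72), Zc3h12d for Plcg2 (1.48), Zfp516 for Vav1 (2.16) and Nod1 for Lcp2 (1.94). Inpp5d had no gene within 5 points, and its nearest was Cd47 at 8.40 points, with H3K27ac over 63.0% and 59.1% of its locus in ERY and 18.0% and 23.1% in iMK. Plcg2 had 75 genes within 5 points and Lyn 50.

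Starts of 6 genes that do not code for protein lay in the 8 loci, and 1 of them, the pseudogene Gm11805 inside Lyn at 42.9 kb, had an H3K27ac peak within 1 kb, in both iMK libraries. None of the 6 had an H3K4me3 peak there.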
